A study of Mus musculus with 2 samples.

Results

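The cytosolic ribosomal proteins are the protein building blocks of the ribosome, here followed in Lin-c-kit+Sca1+ (LSK) cells, the sorted mouse bone marrow fraction that holds haematopoietic stem cells and multipotent progenitors. They were taken as all probe sets whose only gene symbol in the platform annotation begins with Rpl or Rps and a digit, or is Rplp0, Rplp1, Rplp2 or Rpsa, without the ribosomal S6 kinases and without symbols ending in -ps. This gave 49 probe sets for 35 genes among 10833 probe sets that named 1 gene, 22 probe sets for 17 genes of the large (60S) subunit and 27 probe sets for 18 genes of the small (40S) subunit. Expression was measured on 2 Affymetrix arrays, 1 for each of 2 samples of sorted cells, after 2 rounds of RNA amplification. The samples form 1 group with no treatment or second condition. Strain, age and sort are not given in the sources used here, so the spread below is that between these samples and may be technical. No test of any gene is possible, and a difference between the samples is a description of these arrays.

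Each ribosome joins a small subunit, which reads the messenger RNA, to a large subunit, which forms the peptide bonds. The proteins surround a core of ribosomal RNA, and cells make them in matched amounts from mRNAs that begin with a run of pyrimidines, the terminal oligopyrimidine (TOP) motif. In blood formation they are known from Diamond-Blackfan anaemia, in which loss of 1 copy of a ribosomal protein gene impairs red cell production.

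Every signal below is quantile-normalized, in arbitrary units, and signals of different probe sets were not read as relative amounts of mRNA. A probe set was called detected when its signal exceeded, on each array, the control level of that array. This level was the 90th percentile of the 15 control probe sets for the Bacillus genes dap, lys, phe, thr and trp, 12.1 in sample 1 and 8.91 in sample 2. A gene was called detected when any of its probe sets was. Differences are log2(sample 2) minus log2(sample 1), with signals under 20 first set to a floor of 20. In bulk RNA, fewer cells of a type and less RNA per cell cannot be told apart. The arrays differed in 3 prime bias: the ratio of the 3 prime to the 5 prime control probe set was 10.9 in sample 1 and 19.2 in sample 2 for Gapdh, and 10.2 and 27.1 for Actb. Of 7 proliferation genes 6 were higher in sample 1, with summed signals of 1638 in sample 1 and 893 in sample 2. Of the other control probe sets, as deposited, those named BioB were 2.5-fold to 3.99-fold, those named CreX 2.28-fold to 2.29-fold and those named BioC and BioDn 1.15-fold to 1.34-fold higher in sample 2. All 8 measured stem and progenitor genes were detected, with sums of 1683 and 3154. Lyl1 alone had 695 and 2224, so the higher sum in sample 2 rested on that gene. Of the 8, 6 were higher in sample 2, Lyl1 by 3.20-fold and Flt3 by 2.35-fold, with Meis1 at 18.6 and 40.3. Cd48 was 2.25-fold and Myb 2.11-fold higher in sample 1. Of the sorting antigens, Kit had signals of 25.8 and 19.4, next to the floor. None of 6 T cell genes was detected (summed signals 26.7 and 26.3), while 5 of 6 myeloid genes were, with sums of 2643 and 747, the integrin gene Itgam being the exception. Of these 5, Ly6g was under the floor in both samples (14.05 and 9.25), and Mpo had 1862 and 288. All 3 measured B cell genes were detected (sums of 99.2 and 113), each with a low signal. These signals lay between 28.25 and 38.1 in sample 1 and between 31.2 and 43.45 in sample 2, not far above the floor. All 4 erythroid genes (853 and 969) were detected. Among the erythroid genes similar sums hid differences in both directions: the globin gene Hba-a1 had 30.1 and 670.3, Car1 488 and 75.9, Klf1 215 and 80.5, and Car2 121 and 143. The part of 3 prime bias, control signals, proliferation and cell makeup in the differences below was not tested.

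Most ribosomal protein genes gave a signal in both samples, and many gave a strong one. Of the 35 genes, 31 were detected, where 57.0% of all 8251 named genes were. By subunit this was 16 of 17 large subunit genes and 15 of 18 small subunit genes. The 4 others were Rpl39, Rps15, Rps20 and the paralog gene Rps27l, a target of p53, with signals between 1.3 and 15.3. By probe set, 36 of 49 were detected, beside 50.2% of all probe sets naming 1 gene. The control level lies under the floor on both arrays. With the floor of 20 as the level instead, 26 ribosomal genes and 29 of their probe sets passed. A signal over 200 in both samples, a level chosen after seeing the data, was found for 21 of the 49 probe sets, beside 2.12% of all. These 21 probe sets belonged to 9 large subunit and 10 small subunit genes.

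**Figure D1:**
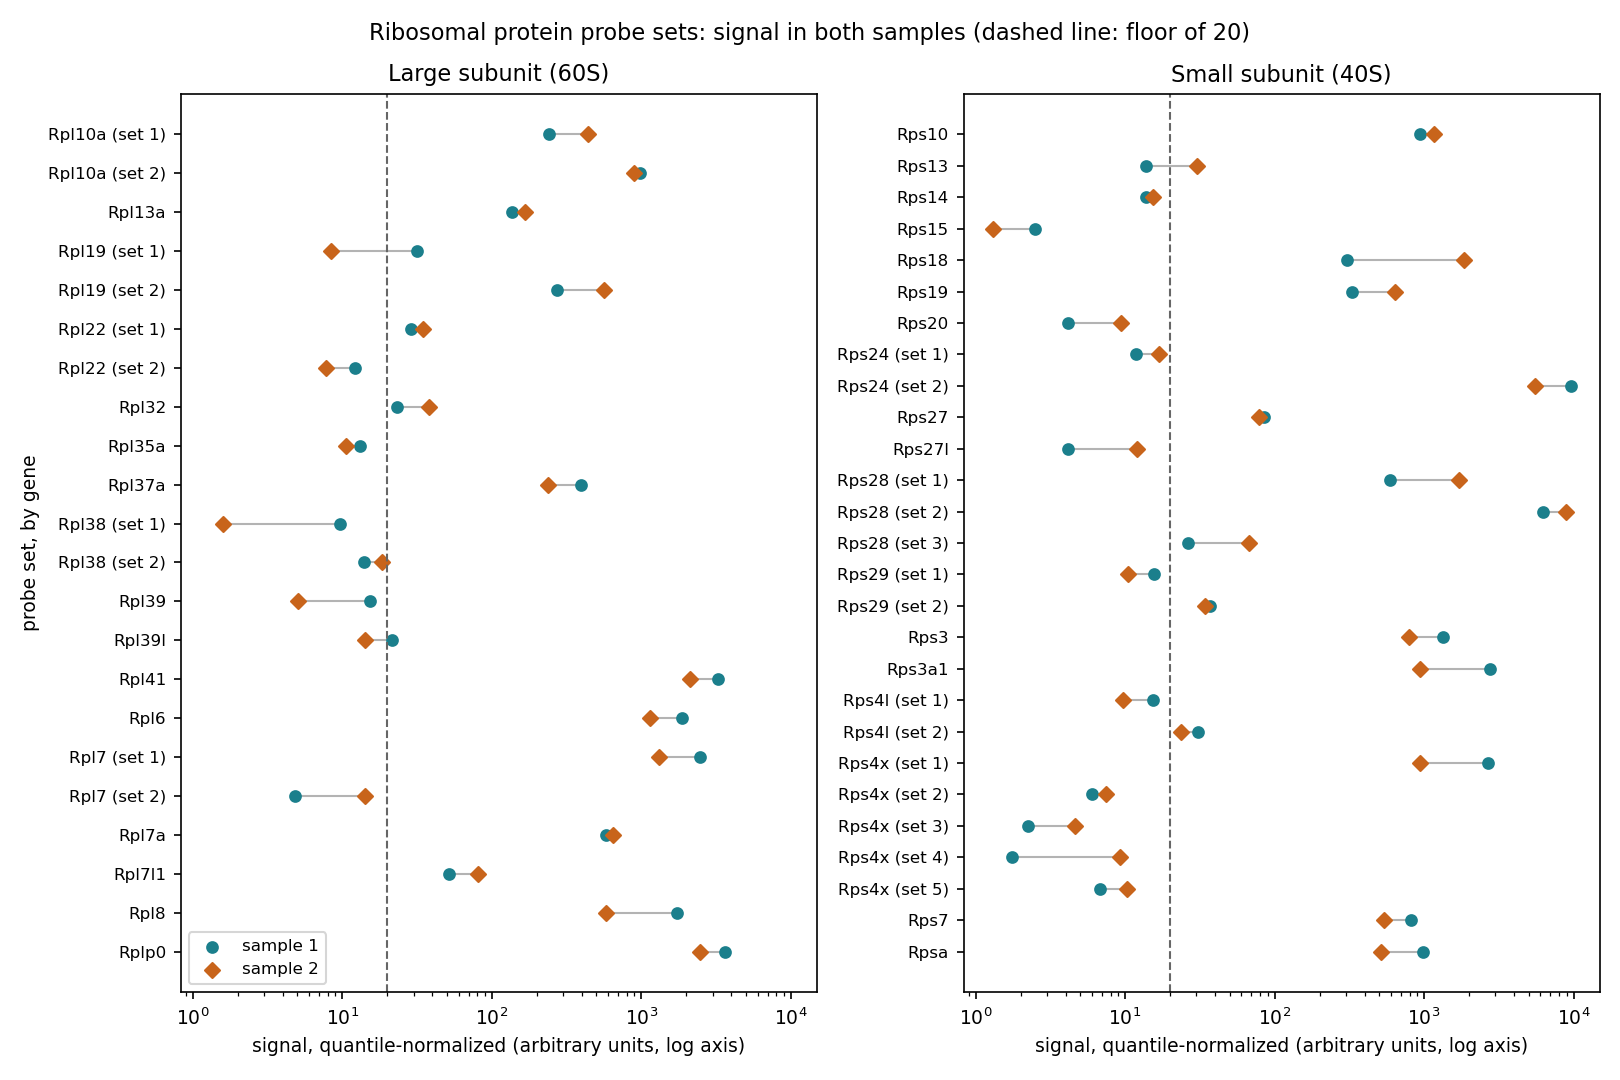
Signal of each of the 49 ribosomal protein probe sets (rows, by gene) in sample 1 (circles) and sample 2 (diamonds) on a log axis in arbitrary units, large subunit left and small subunit right. Signals run from 1.3 to 9585, the dashed line marks the floor of 20, and several genes have 1 strong probe set and others below the floor.

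The genes did not move in 1 direction between the samples. Of the 31 detected genes, 17 were higher in sample 1, 11 were higher in sample 2 and 3 (Rpl35a, Rpl38 and Rps14) were at the floor in both. Of all 4707 detected named genes, 47.1% were higher in sample 1 and 43.3% in sample 2. The median difference of the ribosomal genes was -0.10, beside 0 for all named genes. It was -0.17 with the deposited scaling, beside -0.04 for all genes, and -0.04 with median-centring. Each of the 28 genes with a difference kept its direction under these 3 scalings. The deposited and median-centred scalings differ by 1 constant factor for each array, so between these only a difference near 0 could change direction. The median gene lay 1.53-fold apart between the samples, compared with 1.37-fold for all detected genes. These sets are not matched in signal. The floor narrows differences between weak signals, and ribosomal probe sets more often had signals over 200. This limit also holds for the shares of 2-fold differences given below.

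**Figure D2:**
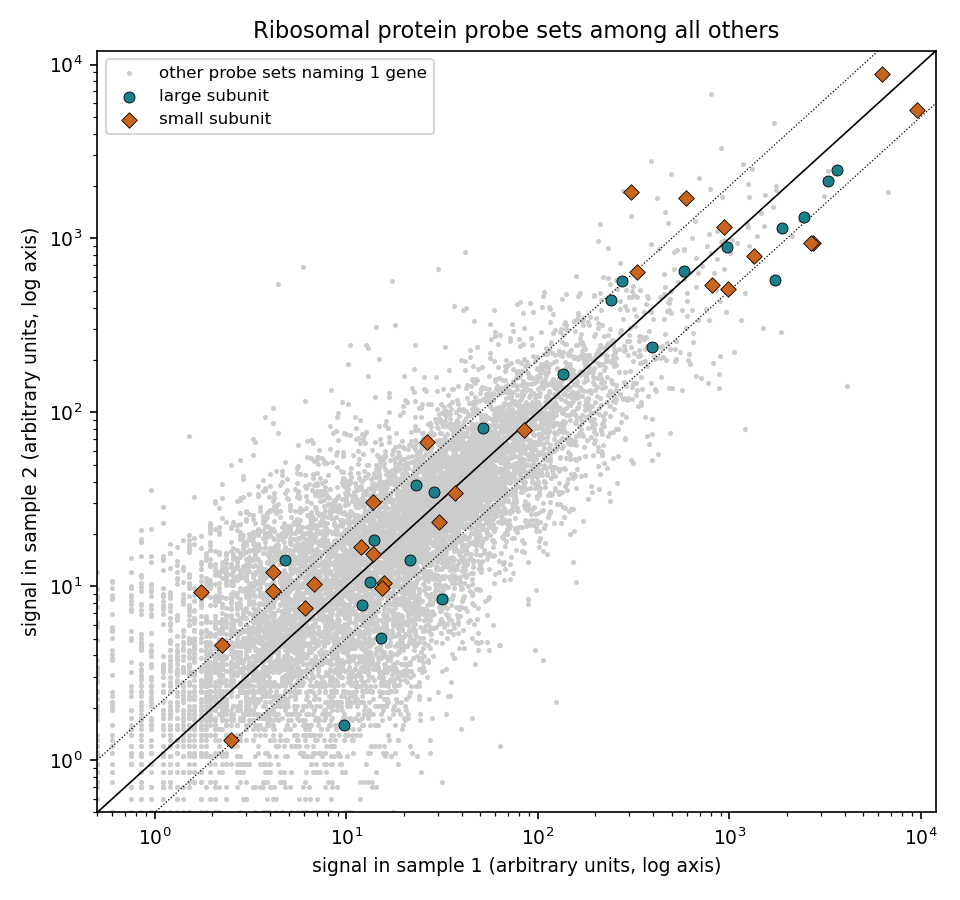
Signal in sample 1 (horizontal) against sample 2 (vertical) on log axes, for ribosomal protein probe sets of the large subunit (circles) and small subunit (diamonds) and for the other probe sets naming 1 gene (grey, signals under 0.5 drawn at 0.5). The solid line marks equality and the dotted lines 2-fold; ribosomal probe sets lie on both sides, with Rps18 (307 and 1850.3) the farthest above.

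The genes below lay farthest on the sample 1 side, each by the strongest of its probe sets. Rpl8, a protein near the peptidyl transferase centre, gave 1734 in sample 1 against 578 in sample 2, a 3.0-fold difference (mean log2 signal 9.97 ± 1.12, SD, n = 2). Rps3a1 of the small subunit had 2751 and 935 (10.65 ± 1.10, SD, n = 2), a 2.94-fold difference. Rps4x, encoded on the X chromosome, had 2667 and 938, 2.84-fold apart (10.63 ± 1.07, SD, n = 2). These 3 of the 31 detected ribosomal genes were 2-fold or more higher in sample 1, a share not above the 11.0% of all detected genes. They were so under each of the 3 scalings. Rpsa, also known as the laminin receptor, had 982 and 514, and Rpl7 of the large subunit had 2458 and 1321. The other probe set of Rpl7 was not detected (4.8 and 14.15).

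On the sample 2 side, Rps18, which sits in the head of the small subunit, was the most different of all the ribosomal genes. It gave 307 against 1850.3, a 6.03-fold difference (9.56 ± 1.83, SD, n = 2). Rpl19, which helps bridge the subunits, had 275 and 568, 2.06-fold apart, and its other probe set was not detected (31.6 and 8.45). Rps18 and Rpl19 were the 2 of 31 detected genes 2-fold or more higher in sample 2, a share not above the 9.62% of all detected genes. With the deposited scaling, where 8.22% of all genes passed that fold, Rps18 alone remained and Rpl19 had a difference of 0.98. Rps19, the gene most often mutated in Diamond-Blackfan anaemia, had 330 and 638, 1.93-fold apart. Rpl32 had 23.1 and 38.4 and the Rpl7 paralog gene Rpl7l1 had 51.5 and 80.8, both nearer the floor. Rps13, with 13.8 and 30.5, crossed the floor and was at least 1.52-fold higher in sample 2. Rps14, a copy of which is lost in a form of myelodysplastic syndrome, had 13.8 and 15.4, under the floor in both.

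The remaining genes with strong signals differed less. The GTPase-associated stalk of the large subunit was represented by Rplp0, with 3633 and 2458, since the probe set for Rplp1 also names another gene. Its difference was -0.56 with quantile normalization, -0.22 as deposited and -0.08 with median-centring. Rpl41, the smallest ribosomal protein, likewise went from -0.62 to -0.42 and -0.28 over these scalings, with signals of 3284 and 2133. Rpl6 (1888 and 1146), Rpl37a (395 and 237) and Rps3 (1340 and 792), the last at the mRNA entry channel, were 1.65-fold to 1.69-fold higher in sample 1. Rpl7a (580 and 647) and Rpl13a (136 and 167) were close in both samples.

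**Figure D3:**
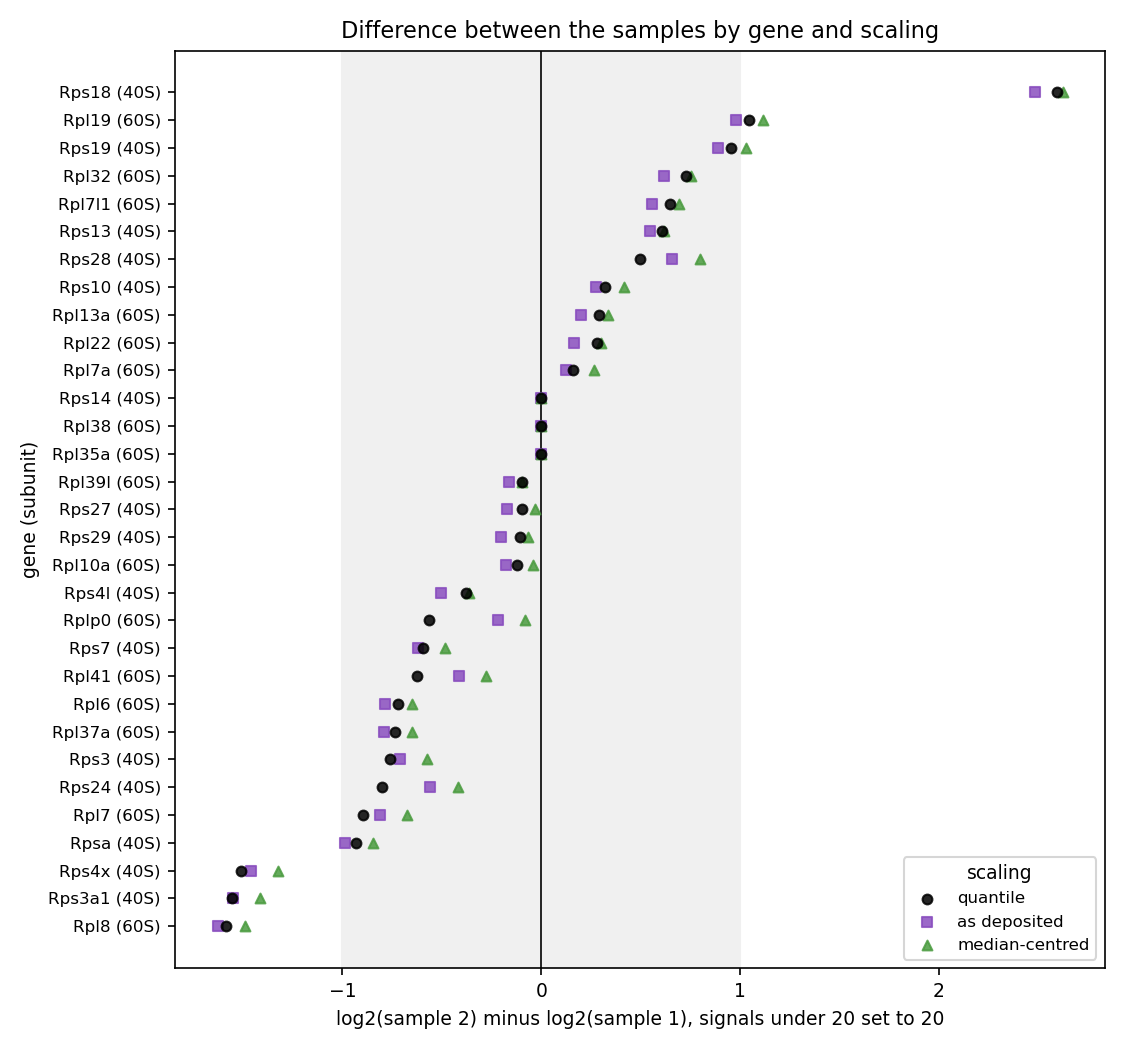
Difference between the samples (log2 of sample 2 minus log2 of sample 1) for the 31 detected ribosomal protein genes, under quantile normalization (circles), deposited scaling (squares) and median-centring (triangles); the grey band marks less than 2-fold. Rpl8, Rps3a1 and Rps4x lie to the left of the band and Rps18 to the right under all 3 scalings, and the strongest signals (Rplp0, Rpl41, Rps24, Rps28) shift most between scalings.

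Genes of both subunits lay on both sides. The median difference was -0.05 over the 16 detected large subunit genes and -0.11 over the 15 detected small subunit genes. Of the large subunit genes 8 were higher in sample 1 and 6 in sample 2, and of the small subunit genes 9 and 5. The gap between these medians, large minus small, was 0.06, and its sign turned to -0.12 without the floor and to -0.03 with an offset of 32 in its place. The gene farthest on the sample 1 side, Rpl8, belongs to the large subunit, and the one farthest on the sample 2 side, Rps18, to the small.

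Of 18 genes listed for Diamond-Blackfan anaemia, 8 were measured by probe sets annotated to 1 gene, and all 8 were detected, beside the 57.0% of all genes. Rps24 was detected, and higher in sample 1, only by a probe set whose gene is uncertain, as described below. Of the 8, 4 were higher in sample 1 and 3 in sample 2, beside 47.1% and 43.3% of all detected genes. Rps19, Rps10 (938 and 1169.6) and Rps28 were higher in sample 2. Rps7 (812 and 538), Rps24, Rps27 (84.7 and 79.1) and Rps29 (36.8 and 34.2) were higher in sample 1, the last pair by under 1.1-fold. Rpl35a, with 13.2 and 10.6, was under the floor in both samples. The median difference of the 8 was -0.05. Of the proteins that line the rim of the exit tunnel, where the new chain leaves the ribosome, Rpl19 was measured as above, while Rpl38 (14.0 and 18.6 by its stronger probe set) and Rpl39 (15.2 and 5.05) stayed under the floor. Rpl22, which early lymphoid development needs, had 28.6 and 34.8. Of the paralogs, the testis gene Rpl39l had 21.4 and 14.2, and Rps4l had 30.6 and 23.5.

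Probe sets of 1 gene often disagreed. There were 10 genes with more than 1 probe set, and in 6 of them a single probe set was detected. Rps4x had 5 probe sets, 1 strong and 4 with signals between 1.75 and 10.2, and its difference was -0.30 when all were averaged. Rps24, another gene of the small subunit, had 9585 and 5508 by a probe set with the suffix _r, which marks relaxed probe selection rules. Its other probe set gave 11.9 and 16.9. The annotation lists the strong probe set under the same GenBank accession as the strong probe set of Rpl7 (2458 and 1321), and the other one under an accession of its own. The signal named Rps24 is therefore uncertain, and without that probe set the median of all the genes stayed at -0.10. Rps28 had 3 probe sets, and all were higher in sample 2: 6291 and 8864 (1.41-fold), 595 and 1710.3 (2.87-fold), and 26.5 and 67.8 (2.56-fold). The annotation lists the first and the last of these under the same GenBank accession, and the last carries the suffix _r. Rpl10a was the gene whose probe sets above the floor went in opposite directions, with 977 and 898 by one and 242 and 444 by the other. Of the 49 probe sets, 9 (18.4%) carried the suffix _r, compared with 6.82% of all probe sets naming 1 gene.

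The single-gene rule left out a large share of the ribosomal proteins, because many of their probe sets also name pseudogenes or predicted genes. There were 39 such probe sets, naming 32 ribosomal protein genes of which only Rps27 was also among the 35. They were not counted above, and their signals cannot be assigned to the functional gene alone. Of these 39 probe sets 35 were detected, beside 57.3% of all 396 probe sets naming several genes, and 22 had signals over 200 in both, beside 10.6%. They lay more often on the sample 2 side: 24 were higher in sample 2 and 11 in sample 1, where 45.8% of all detected probe sets naming several genes lay on that side. Their median difference was 0.41, and it was 0.34 as deposited and 0.48 with median-centring. A 2-fold or greater excess in sample 2 was seen for 11 of them, beside 13.7%, and in sample 1 for 3, beside 13.2%. The 396 probe sets naming several genes include these 39, so the shares given beside them are not independent of them. Of the 42 among the 396 with signals over 200 in both samples, 22 were ribosomal. The difference between the probe sets of 1 gene and those of several was not tested, as probe sets are not replicates.

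Examples of these, chosen after their values were seen, again went both ways. The stronger probe set naming Rps12 (275 and 896) and that naming Rpl36 (74.2 and 250.2) were over 3-fold higher in sample 2. The probe set naming Rps27 together with its retrocopy had 387 and 1259, while that naming Rps27 alone had 84.7 and 79.1. The stronger probe set naming Rpl3 (2133 and 718) and that naming Rps2 (3772 and 1515) were higher in sample 1. A weaker probe set naming Rpl3 was higher in sample 2 (39.15 and 53.35). The probe set for Rpl5, which with Rpl11 carries the 5S RNA and restrains Mdm2, had 2511 and 2113. Rps6, the substrate of the S6 kinases, had 631 and 712. Directions for 5 of the 35 depended on the scaling, among them Rpl30 (-0.43, and 0.32 as deposited) and Rps26 (-0.31, and 0.14 as deposited). Over both kinds of probe set together, 38 of 71 detected ones were higher in sample 2 and 28 in sample 1, with a median of 0.07. Of all 6118 detected probe sets other than controls, 2594 (42.4%) were higher in sample 2 and 2830 in sample 1, with a median of 0. As deposited, the medians were 0.13 and -0.02.

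**Figure D4:**
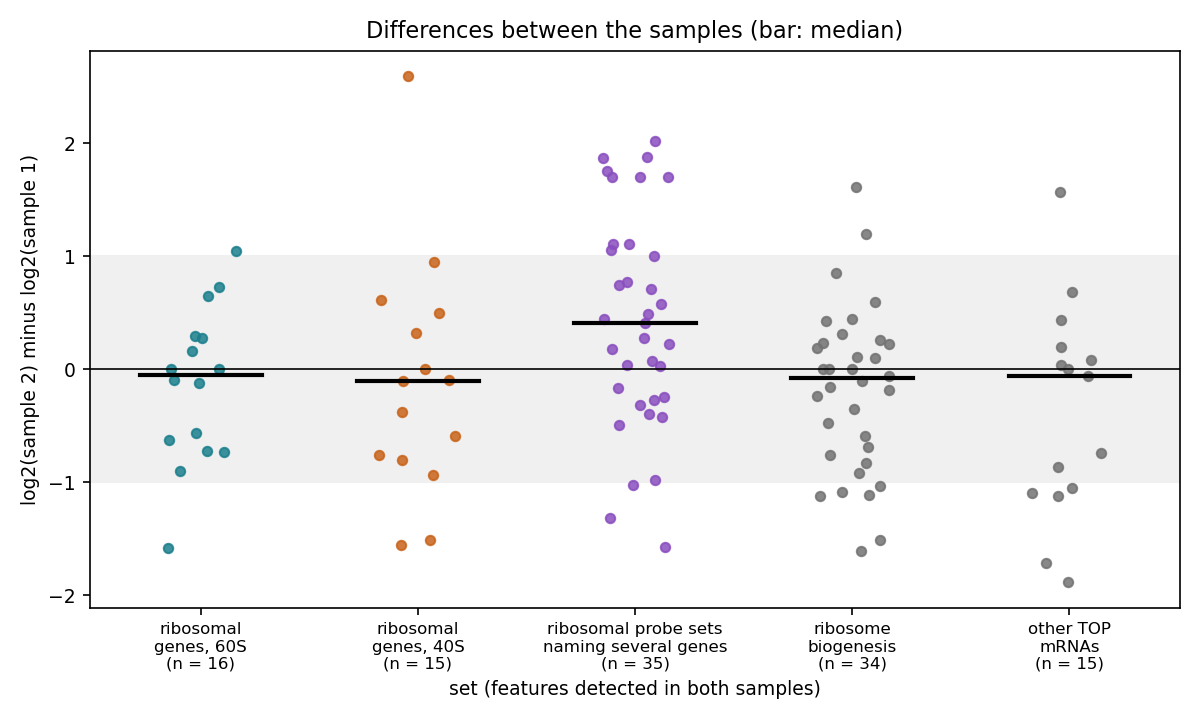
Difference between the samples (log2, vertical) for detected features, each point a gene or, in the third column, a probe set naming several genes; bars are medians and the grey band marks less than 2-fold. Medians lie at -0.05 for large and -0.11 for small subunit genes, 0.41 for ribosomal probe sets naming several genes, -0.08 for ribosome biogenesis genes and -0.06 for other TOP mRNAs.

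The start regions are shown because the pyrimidine run of a TOP mRNA begins there. The windows below run from 15 bases before the annotated RefSeq start (GRCm38.p6) to 15 bases from it onward, 5′ to 3′ on the gene's strand. Capitals mark runs of a C followed by at least 5 letters that are C or T, the letters of a TOP start, some of which go on past the window. The first 8 are the detected genes most different between the samples among those with 1 start in the promoter table, 4 higher in sample 1 (Rps3a1, Rps4x, Rpsa and Rps3) and 4 higher in sample 2 (Rps18, Rpl7l1, Rps13 and Rps28). The last 4 were chosen for their runs, Rpl6 and Rps27 from the genes higher in sample 1 and Rpl7a and Rps10 from those higher in sample 2.
Rps3a1, chr3:86142654-86142683, minus strand: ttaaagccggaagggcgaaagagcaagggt
Rps4x, chrX:102189377-102189406, minus strand: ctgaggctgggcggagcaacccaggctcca
Rpsa, chr9:120127751-120127780, plus strand: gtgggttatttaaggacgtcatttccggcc
Rps3, chr7:99483695-99483724, minus strand: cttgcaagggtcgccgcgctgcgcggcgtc
Rps18, chr17:33955651-33955680, minus strand: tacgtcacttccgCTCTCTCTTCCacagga
Rpl7l1, chr17:46782642-46782671, minus strand: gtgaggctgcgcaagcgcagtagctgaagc
Rps13, chr7:116334176-116334205, minus strand: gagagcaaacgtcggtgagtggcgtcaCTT
Rps28, chr17:33824548-33824577, minus strand: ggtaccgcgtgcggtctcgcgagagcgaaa
Rpl6, chr5:121204486-121204515, plus strand: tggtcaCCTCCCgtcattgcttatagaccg
Rps27, chr3:90213634-90213663, minus strand: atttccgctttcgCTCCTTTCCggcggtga
Rpl7a, chr2:26910792-26910821, plus strand: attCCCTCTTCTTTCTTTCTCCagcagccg
Rps10, chr17:27635230-27635259, minus strand: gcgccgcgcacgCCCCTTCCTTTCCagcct

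RefSeq promoters were matched for 28 of the 35 genes. Such a run, starting within 20 bases of an annotated start, was found in 17 of the 28 (60.7%), compared with 34.8% of 27025 genes in the table. CGGAAG, the core letters that ETS family factors recognise, was found on either strand within the 300 bases of 19 of the 28 (67.9%), compared with 18.8% of all genes. TATAAA within 50 bases before the start was found in none of the 28 and in 3.15% of all genes. The C or T run was present in 7 of 10 genes higher in sample 2 and in 5 of 13 higher in sample 1, and CGGAAG in 6 of 10 and 9 of 13. Annotated starts can lie some bases from the true ones, so a missing run says only that these letters are not in the window.

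Genes that build the ribosome and other genes with TOP mRNAs lay on both sides, with more of the 2-fold differences on the sample 1 side. Of 41 measured ribosome biogenesis genes 34 were detected, 18 of them higher in sample 1 and 13 in sample 2, with a median difference of -0.08. By 2-fold or more, 6 were higher in sample 1 and 2 in sample 2, beside the 11.0% and 9.62% of all detected genes. Npm1, the nucleolar chaperone nucleophosmin, had 617 and 217, 2.84-fold apart, while Gar1 of the H/ACA particles had 291 and 389.7, and Nop16 had 254 and 223. Of 16 other genes with TOP mRNAs, 15 were detected, 8 higher in sample 1 and 6 in sample 2, with a median of -0.06, and by 2-fold or more 5 and 1. Eef1a1, the elongation factor that brings aminoacyl-tRNA, had 6778 and 1837, Pabpc1, the poly(A)-binding protein, had 2125 and 1026, and Tpt1 had 901 and 950.5. Mitochondrial ribosomal proteins, which serve a separate ribosome, were detected for 50 of 61 genes, with 32 higher in sample 1, 16 in sample 2 and a median of -0.30, and by 2-fold or more 11 and 1. Translation factors with Eif or Eef symbols had a median of -0.16 over 40 of 49 genes, and by 2-fold or more 8 and 3. This set overlaps the other genes with TOP mRNAs: Eef1a1, Eef1d and Eif3f, each over 2-fold higher in sample 1, count in both. The shares of 11.0% and 9.62% stand beside each of these 2-fold counts, and 57.0% of all named genes stands beside the detected ones. None of these differences between sets was tested.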

How the data were processed

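Expression was measured in LSK cells from mouse bone marrow, in 2 samples with 1 array each. The authors deposited linear signal intensity values, 1 per probe set, for 12488 probe sets per array. The sources used here do not give the summarising software. Both deposited columns had a mean of 53.94, and their medians were 15.9 and 14.45. The columns were quantile-normalized over all probe sets with Python 3.11.15 and numpy 2.4.6. The floor of 20 was applied before log2 and held 57.6% of values. The 66 control probe sets entered no count. The number of arrays limits the precision, and p-values are not given.

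Gene symbols came from the platform annotation, in which 10833 probe sets named 1 gene, 396 several and 1193 none, and all 35 symbols were in the RefSeq gene table of GRCm38.p6. Genes with several probe sets were represented by the one whose mean log2 signal was highest. The ribosomal genes and all gene lists were chosen with earlier results of these data known. Values were given for listed roles, for the 5 genes most different in each direction with both signals above the floor, for genes whose probe sets disagreed in direction, and for the 3 strongest genes of other lists. The calculations were checked on simulated data. The results were recomputed with other control levels, with either sample alone, 2 other scalings, no floor, an offset of 32, no filter, the mean over probe sets, probe sets without a suffix, and 3 added after seeing the data.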

Additional observations from a re-analysis of the deposited data

How the results depend on the processing

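Of 35 recomputed counts, 31 stayed within 1.5 times the reported ones, and the medians are given as ranges, since 2 samples give them no error of their own. The count of ribosomal genes 2-fold or more higher in sample 2 was 2, and fell to 1 with the values as deposited and with an offset of 32 in place of the floor. It rose to 3 with median-centring (Rps19, 1.03), without the floor (Rps13, 1.14) and with probe sets without a suffix, and with the mean over probe sets it stayed at 2, with Rps28 (1.12) in place of Rpl19 (0.19). With a signal of 200 as the level, chosen after seeing the data, 21 probe sets and 19 genes remained above it. With sample 1 or sample 2 left out, the counts above the control level ranged from 39 to 42 probe sets and from 32 to 33 genes. Over its 9 alternatives the median difference of the ribosomal genes ranged from -0.17 to 0, that of the large subunit from -0.22 to 0.08, that of the small from -0.20 to -0.05, and the gap between the subunits changed sign, from -0.12 to 0.18. Of 210 recomputed differences of single genes, 186 stayed within 1 SD of that gene between the samples, an allowance that grows with its difference. For Rpl35a, Rpl38, Rpl39, Rps14, Rps15, Rps20 and Rps27l, under the floor in both samples, settings that kept the floor fixed the difference at 0. Those values were bound to stay and are counted in the 186. Of the 2-fold differences 0 reversed. Reversal was counted for those alone, and the smaller difference of Rpl10a turned from -0.12 to 0.38 with the mean over probe sets. No paired analysis was possible because the labels give 1 group. Signals under 40 in both samples, 2 times the floor, limit what can be said of 13 genes: Rpl22, Rpl32, Rpl35a, Rpl38, Rpl39, Rpl39l, Rps13, Rps14, Rps15, Rps20, Rps27l, Rps29 and Rps4l.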
